A study of Mus musculus with 18 samples.

Results

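Whole-hippocampus RNA from mice injected with kainic acid (KA) was compared with whole-hippocampus RNA from surgery-matched mice injected with phosphate-buffered saline (PBS). The comparison holds 6 of the 18 libraries of the series, 3 KA and 3 PBS, and the 10849 of 55291 gene symbols that exceeded 1 FPKM in all 6. FPKM is a read count scaled by gene length and library size. All mice were male C57BL/6J, 6 weeks old when AAVDJ-GfaABC1D-EGFP-Rpl10a was injected into the right CA3. This vector puts a GFP-tagged ribosomal protein under an astrocyte promoter, so every library here, control or KA, comes from tissue that carries it. KA mice received 50 nL of 20 mM KA in the right dentate gyrus 2 weeks after the virus, and RNA was collected 14 days later. PBS mice received PBS after the same virus, but its volume and timing are not given in the sources used here. AAV control mice received the virus alone, and RNA was collected 2 weeks later. Each sample pools the right hippocampi of 3 to 4 mice, so p-values measure the spread between pools. Among the KA pools this includes any difference between their sequencing runs. Libraries are called #1 to #3 after the numbers in their labels, and 3 values given for a group are those of #1 to #3 in that order. Input is an aliquot of homogenate taken before the GFP-tagged ribosomes were immunoprecipitated (IP).

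The labels call all samples hippocampal astrocytes, but the input libraries held RNA of every major hippocampal cell class. Snap25, a presynaptic SNARE protein of neurons, was at 464 ± 13.3 FPKM (SD, n = 3) in PBS input, against 42.9 ± 5.57 FPKM for Gfap, the intermediate filament of astrocytes. Mbp, a myelin protein of oligodendrocytes, was at 284 ± 49.1 FPKM. C1qa, a complement subunit made by microglia, was at 55.6 ± 2.95 FPKM (SD, n = 3). Values are therefore those of whole tissue, in which fewer cells of a type and less RNA per cell cannot be told apart.

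KA is an agonist of ionotropic glutamate receptors, and its local injection causes a prolonged seizure followed by loss of pyramidal cells, dispersion of granule cells and gliosis, the features of hippocampal sclerosis in mesial temporal lobe epilepsy. Injured hippocampus is known for astrocytes that enlarge and make intermediate filaments, for microglia that proliferate, phagocytose and tag synapses with complement, and for surviving granule cells and interneurons that change their neuropeptides and growth factors. Whole-tissue RNA reports all of these at once, as a sum of cell number and of transcription per cell.

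KA and PBS libraries separated along the first principal component, which carried 69.0% of the variance. KA #3 stood apart from KA #1 and KA #2 on the second component, which carried 14.4%, at 28.1 against -11.0 to 0.17 for the other 5 libraries. Depth was even, from 9534606 to 10766221 counts per library, with 97.4% to 98.3% of counts in the genes tested. The 3 PBS libraries were sequenced in run 3 and the KA libraries in runs 1 (KA #1 and #2) and 2 (KA #3), so run and treatment cannot be told apart in this comparison. AAV control libraries were split over runs 1 and 2 like the KA libraries, and their values are given beside the results on which they bear.

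Log2 fold changes are KA over PBS, from edgeR's quasi-likelihood test on the deposited counts with Benjamini-Hochberg adjustment over the 10849 genes, and a gene passed at an adjusted p under 0.05. Of the genes tested, 3006 (27.7%) passed, 1684 (15.5%) higher and 1322 (12.2%) lower in KA. Differentially expressed genes (DEGs), which also had to change at least 2-fold, were mostly higher: 462 (4.26%) rose and 118 (1.09%) fell, so that 79.7% of them were higher in KA (68.9% without KA #3). These shares over all genes tested are the background for the counts of each gene list below. The increases were also larger. Of the genes that rose, 115 did so at least 4-fold and 40 at least 8-fold, whereas 4 of those that fell did so at least 4-fold. The median log2 fold change over all genes tested was 0.005, and the groups did not overlap, KA above PBS, in 18.4% of genes and, KA below PBS, in 17.5%. Of the 10849 genes tested, 9725 were annotated as protein coding. Among the genes that rose, 416 (90.0%) were, and 21 carried Gm symbols of predicted genes. Among those that fell, 59 (50%) were protein coding, while 50 carried Gm symbols and 7 were transcribed from mitochondrial DNA. The shares of Gm and mitochondrial genes over all genes tested are not given here. The number of genes that fell depended on single libraries: it was 118 with all 6, but 61 without KA #1, 74 without KA #2 and 246 without KA #3. The number that passed at an adjusted p under 0.05 was 1716 without KA #1, 1977 without KA #2, 4820 without KA #3, 1752 without PBS #2 and 1787 without PBS #3.

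**Figure D1:**
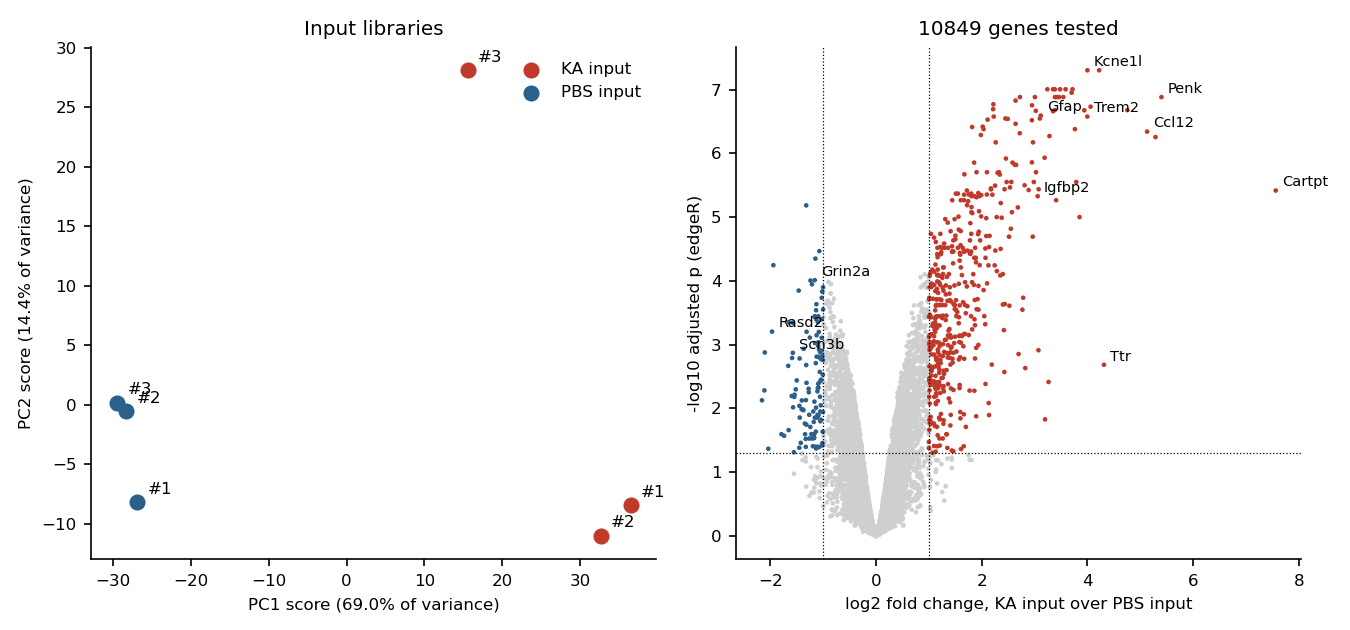
Left, scores of the 6 input libraries on the first and second principal components of log2 CPM, with KA and PBS libraries in different colours. Right, log2 fold change (KA over PBS) of the 10849 genes tested against -log10 of the adjusted p, in which 462 DEGs lie on the right and 118 on the left.

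The 2 largest increases were in precursors of secreted neuropeptides. Cartpt, which encodes the precursor of the CART peptides, was at 573, 532 and 1276 FPKM in KA and 1.79, 3.71 and 7.47 FPKM in PBS. All 3 KA libraries were far above all 3 PBS libraries, with 6473 to 16609 counts behind the KA values and 23 to 97 behind the PBS values (log2 fold change 7.56 ± 0.53 (SE), adjusted p = 3.83e-06). KA #3 was the highest of the 3. Penk, the precursor of the enkephalin opioid peptides, was at 1042, 913 and 1405 FPKM in KA and 23.3, 25.6 and 31.2 FPKM in PBS, again with no overlap (log2 fold change 5.4 ± 0.23 (SE), adjusted p = 1.31e-07). Cartpt lies on the minus strand of GRCm38 at chr13:99898489-99901091 and overlaps no other annotated gene. Penk at chr4:4133531-4138819 overlaps A830012C17Rik on the other strand. The strand setting of the counting is not given in the sources used here.

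Scg2, secretogranin II of dense-core vesicles, was at 562, 499.6 and 474 FPKM in KA and 80.8, 93.4 and 97 FPKM in PBS, with the 3 KA libraries close together (log2 fold change 2.49 ± 0.12 (SE), adjusted p = 2.88e-07). Bdnf, the neurotrophin that signals through TrkB, was at 58.1, 52.7 and 48.4 FPKM in KA and 12.2, 11.5 and 12.8 FPKM in PBS (log2 fold change 2.11 ± 0.11 (SE), adjusted p = 2.96e-07). Both groups of Bdnf values were tight, with no KA library near a PBS library. Inhba, the activin A subunit, rose by 2.72 ± 0.15 (log2, SE), Nptx2, a neuronal pentraxin that clusters AMPA receptors, by 2.54 ± 0.17, Gal, the galanin precursor, by 2.4 ± 0.25, and Adcyap1, the precursor of PACAP, by 2.07 ± 0.19. Their adjusted p values were 4.83e-07, 3.41e-06, 7.82e-05 and 3.10e-05. Pdyn, the dynorphin precursor, rose from 2.07 ± 0.357 to 7.37 ± 0.805 FPKM (SD, n = 3 each, log2 fold change 1.82, adjusted p = 1.05e-04), and Vgf, a further granin, from 18.5 ± 0.943 to 47.3 ± 17 FPKM (log2 fold change 1.32, adjusted p = 8.37e-04).

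Npy, the neuropeptide Y precursor, was at 538, 751 and 1541 FPKM in KA and 409.7, 381 and 395 FPKM in PBS. KA #3 was the highest, and all 3 were above the PBS libraries (log2 fold change 1.28 ± 0.34 (SE), adjusted p = 0.0174). Trh, the thyrotropin-releasing hormone precursor, was at 13, 27 and 21.8 FPKM in KA and 0, 2.08 and 4.4 FPKM in PBS and was not tested because PBS #1 held no count. On all genes with at least 10 counts over the 6 libraries its log2 fold change was 3.24 ± 0.49 (SE), adjusted p = 2.37e-04. Not every peptide was higher. Cck, the cholecystokinin precursor, was at 1878, 1429.7 and 1074 FPKM in KA and 1535, 1366 and 1248 FPKM in PBS and the groups overlapped (log2 fold change 0.045 ± 0.20 (SE), adjusted p = 0.889), as they did for Chgb, chromogranin B (log2 fold change -0.026, adjusted p = 0.879). Sst, the somatostatin precursor, fell by 0.43 on the log2 scale (adjusted p = 0.0290), Ntf3, the neurotrophin NT-3, by 0.62 (adjusted p = 0.0308), and Nptx1, a pentraxin related to Nptx2, by 0.56 (adjusted p = 0.00386). Of the 27 genes listed as neuropeptides and activity-regulated secreted factors, 25 were tested: 12 rose at least 2-fold, 4 rose by less, 4 fell by under 2-fold and 5 did not pass, with a median log2 fold change of 0.97 against 0.005 over all genes tested. Some of these calls were lost when a library was left out: Npy without PBS #1, PBS #2 or PBS #3 (adjusted p up to 0.0751), Sst without KA #1, KA #2, PBS #1 or PBS #2 (adjusted p up to 0.141) and Ntf3 without KA #1, KA #2, PBS #2 or PBS #3 (adjusted p up to 0.107). Of the 4 decreases in this list, 1 passed without KA #1 or PBS #2 and 2 without KA #2, PBS #1 or PBS #3.

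The promoters of this group are shown because several hold the cAMP response element (CRE), the palindrome TGACGTCA bound by CREB family factors and known from promoters that neuronal activity regulates. The window searched ran from 250 bases before to 50 bases after the start of each gene in RefSeq (GRCm38.p6), on both strands. The palindrome was found in 5 of the 20 listed neuropeptide genes with a promoter in the table (25%), in 2.03% of all 27025 genes with a promoter, in 3.82% of the genes tested and in 1.79% of the 335 genes that rose at least 2-fold and had a promoter. In the other lists searched the share was 11.1% for immediate early genes, 6.25% for antigen presentation and 0% for reactive astrocytes and activated microglia. The lists were chosen with earlier results of these data known, and no difference between these shares was tested. Sites of AP-1 (TGACTCA) and STAT (TTCNNNGAA) factors were searched too and are not shown. Their highest shares were 16% and 20%, both in reactive astrocyte genes, beside 4.01% and 7.47% of the genes tested. The match is set in capitals below, with 20 bases on either side. The RefSeq starts of Cartpt and Sst lie within their GENCODE gene spans, as both annotations place the start differently, so these windows cover part of the GENCODE gene.
Cartpt, chr13:99900768-99900815, minus strand: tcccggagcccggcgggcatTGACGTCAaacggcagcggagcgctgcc
Scg2, chr1:79440067-79440114, minus strand: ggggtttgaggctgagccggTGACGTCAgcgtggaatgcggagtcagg
Pcsk1, chr13:75089759-75089806, plus strand: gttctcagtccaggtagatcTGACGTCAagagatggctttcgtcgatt
Sst, chr16:23890865-23890912, minus strand: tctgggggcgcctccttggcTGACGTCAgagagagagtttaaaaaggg
Chgb, chr2:132781550-132781597, plus strand: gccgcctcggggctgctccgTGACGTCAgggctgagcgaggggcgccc
These 5 genes did not move alike. Cartpt and Scg2 rose, as did Pcsk1, a prohormone convertase, by 0.70 (log2, adjusted p = 0.0143). The call on Pcsk1 was lost without KA #1 or PBS #2 (adjusted p up to 0.0718), as were those on Sst and Npy given above. Sst fell, and Chgb did not pass. Bdnf and Npy held no such match in their windows.

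Genes of microglia, the resident macrophages of the brain, rose together. All 12 listed markers of homeostatic microglia rose at least 2-fold, with a median log2 fold change of 1.65, against 4.26% of all genes tested. Csf1r, the receptor for colony-stimulating factor 1, was at 15.3, 14.1 and 13.5 FPKM in KA and 3.69, 4.1 and 4.27 FPKM in PBS (log2 fold change 1.82 ± 0.10 (SE), adjusted p = 3.86e-07). Cx3cr1, the fractalkine receptor, rose from 6.27 ± 0.411 to 22.1 ± 3.05 FPKM (SD, n = 3 each, log2 fold change 1.81, adjusted p = 4.70e-06), and Tmem119, a surface marker that separates microglia from blood macrophages, from 5.47 ± 0.744 to 16.7 ± 1.68 FPKM (log2 fold change 1.6, adjusted p = 5.43e-06). P2ry12, the ADP receptor of surveying microglia, had the smallest increase of the list, by 1.05 ± 0.15 (log2, SE, adjusted p = 6.87e-04).

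Markers of activated microglia rose as well. Of 18 tested, 17 rose at least 2-fold and 1 did not pass, with a median log2 fold change of 2.99. Lyz2, lysozyme, was at 309.5, 264 and 215 FPKM in KA and 13.1, 12.8 and 16 FPKM in PBS (log2 fold change 4.22 ± 0.14 (SE), adjusted p = 4.97e-08). Trem2, a lipid receptor that signals through Tyrobp, was at 59.9, 45.1 and 31.4 FPKM in KA and 2.6, 3.04 and 2.74 FPKM in PBS (log2 fold change 4.0 ± 0.20 (SE), adjusted p = 2.65e-07). Tyrobp itself was at 312, 219 and 438 FPKM in KA and 39.2, 47.2 and 38 FPKM in PBS (log2 fold change 2.96, adjusted p = 2.03e-05). In both genes the lowest KA library was several times the highest PBS library. Ctsd, the aspartyl protease cathepsin D, was at 746, 569 and 598 FPKM in KA and 46.1, 55.9 and 61.3 FPKM in PBS (log2 fold change 3.54 ± 0.15 (SE), adjusted p = 1.31e-07). Spp1, osteopontin, rose by 3.85 ± 0.31 (log2, SE) and Cd52, a small glycoprotein of leukocytes, by 4.76 ± 0.22. The member that did not pass was Lpl, lipoprotein lipase, at 3.46 ± 0.440 FPKM in KA and 3.49 ± 0.482 FPKM in PBS (SD, n = 3 each, log2 fold change -0.028, adjusted p = 0.901). Cd74, the invariant chain of MHC class II, rose by 1.7 (log2, adjusted p = 3.22e-04), but AAV control #3 held 44.6 FPKM against 12.4 FPKM in the highest KA library.

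The 7 other members of the activated list were at or under 1 FPKM in a PBS library, so they were not tested. Their KA values all lay above their PBS values (18.4% of the 21645 genes with at least 10 counts did so). A gene left untested for low values in PBS or in KA tends to lie lower in that group by the way it was picked. The share over all genes is not picked so, and this holds for the untested members of every list below. Cst7, the protease inhibitor cystatin F, was at 149.6, 111 and 120.3 FPKM in KA and 0.606, 0.377 and 0.499 FPKM in PBS, the highest mean KA level among the genes above 1 FPKM in all KA and at or under 1 FPKM in all PBS libraries. Ccl3, a chemokine, was at 44.5, 24 and 21.1 FPKM in KA and 0.909, 0.607 and 0.257 FPKM in PBS. Ccl4, a close relative of it, was at 49.6, 27.2 and 33.7 FPKM in KA and 1.21, 0.845 and 0.596 FPKM in PBS. Clec7a, the beta-glucan receptor dectin-1, was at 11.6, 7.44 and 10.6 FPKM in KA and 0.0755, 0.211 and 0 FPKM in PBS. The counts behind Cst7 were 1043 to 1455 in KA and 4 to 6 in PBS, and on the genes with at least 10 counts its log2 fold change was 7.94 ± 0.22 (SE), adjusted p = 1.52e-11.

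**Figure D2:**
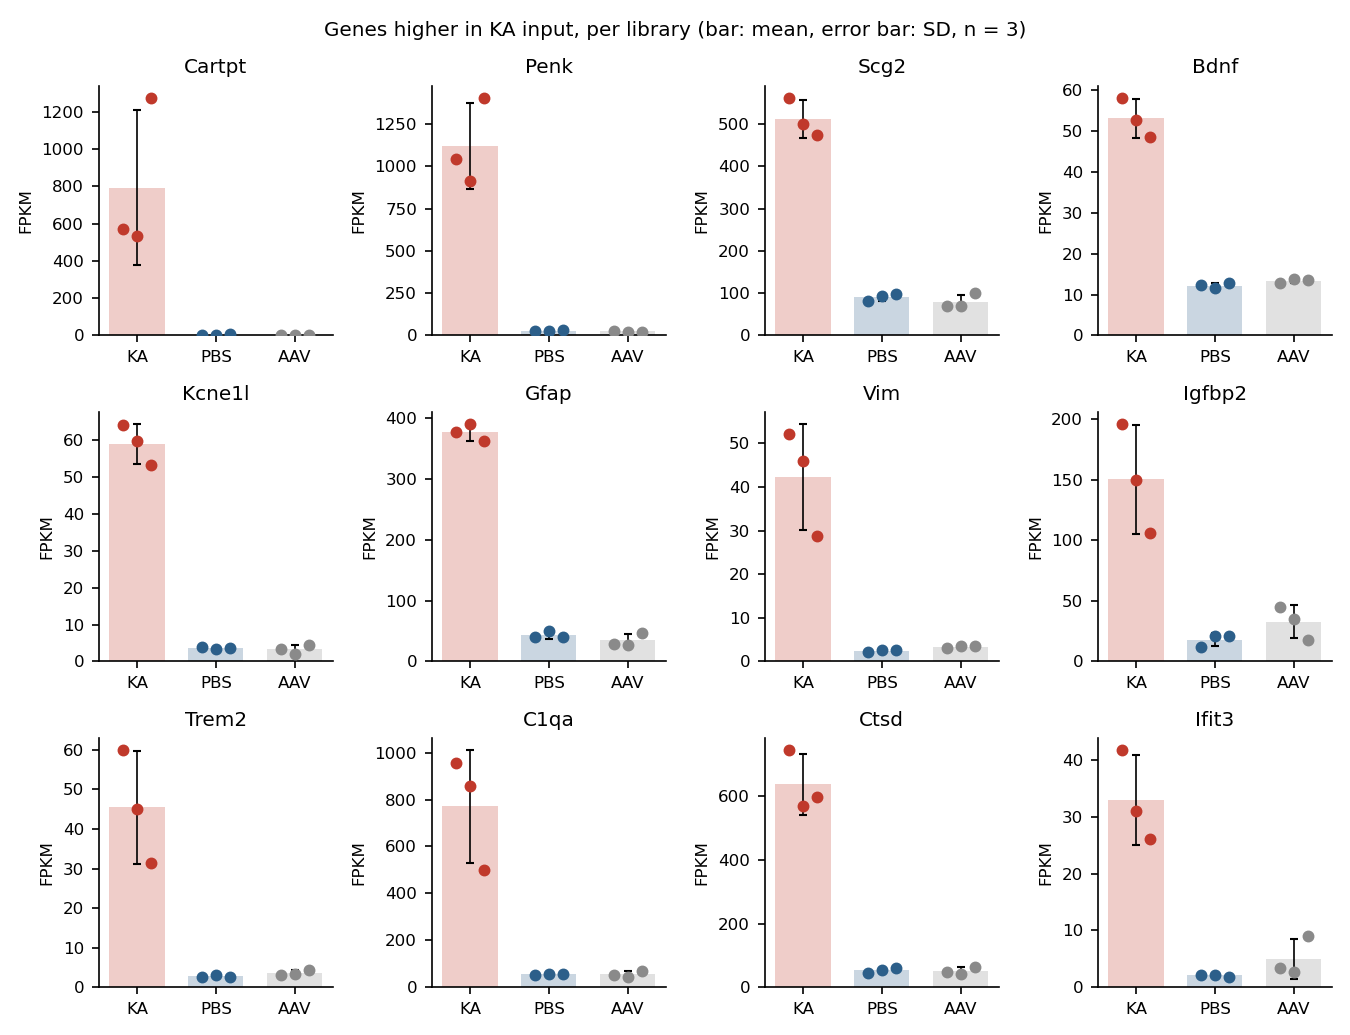
FPKM of 12 genes that were higher in KA, in each of the 9 input libraries (KA, PBS and AAV control, 3 each). Bars are group means, error bars are SD and points are libraries, and for each gene the 3 KA points lie above the 3 PBS points.

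Complement genes, whose products opsonise debris and synapses, also rose. C1qa, C1qb and C1qc, the chains of C1q, lie side by side on chromosome 4 and are made in the brain mainly by microglia. C1qa was at 955, 858 and 498 FPKM in KA and 52.3, 58.1 and 56.4 FPKM in PBS (log2 fold change 3.76 ± 0.20 (SE), adjusted p = 4.17e-07). C1qb and C1qc rose by 3.72 ± 0.15 and 3.24 ± 0.13 (log2, SE). C4b, a component downstream of C1q, was at 17.6, 15.3 and 11.5 FPKM in KA and 1.22, 1.65 and 1.31 FPKM in PBS (log2 fold change 3.38 ± 0.16 (SE), adjusted p = 2.09e-07). All 3 KA libraries of these genes were above all 3 PBS libraries, KA #3 being the lowest for each. C3, the central component, was listed at 2.84, 1.76 and 1.95 FPKM in KA and 0.0581, 0.0903 and 0.0765 FPKM in PBS and was not tested. Of 16 complement genes and receptors, 5 were tested, 4 rose at least 2-fold and Clu, clusterin, rose by 0.73 (log2, adjusted p = 0.00514), and 9 of the 11 others rose at least 2-fold among genes with at least 10 counts, where 6.85% did.

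Antigen presentation and interferon-stimulated genes rose without exception in the list of 20. All 8 tested members rose at least 2-fold (median log2 fold change 3.24). So did the 12 untested ones among genes with at least 10 counts, where 6.85% did. B2m, the light chain of MHC class I, was at 1006, 825 and 924 FPKM in KA and 117, 92.7 and 109 FPKM in PBS (log2 fold change 3.1 ± 0.15 (SE), adjusted p = 2.83e-07). H2-D1 and H2-K1, heavy chains of that complex that share sequence with each other, rose by 3.38 ± 0.13 and 3.46 ± 0.14. Ifit3, an interferon-induced RNA-binding protein, was at 41.7, 30.9 and 26.1 FPKM in KA and 2.17, 2.24 and 1.92 FPKM in PBS (log2 fold change 3.94 ± 0.19 (SE), adjusted p = 2.11e-07). Bst2, tetherin, was at 127, 119 and 99.8 FPKM in KA and 8.27, 10.6 and 7.29 FPKM in PBS (log2 fold change 3.7 ± 0.15 (SE), adjusted p = 1.12e-07). Ifi27l2a, which was chosen for its place among the 12 largest increases and not for its function, was at 72.9, 76.8 and 106 FPKM in KA and 2.79, 2.21 and 1.49 FPKM in PBS (log2 fold change 5.29 ± 0.29 (SE), adjusted p = 5.54e-07). For B2m and H2-D1 the AAV control was uneven: AAV #3 was at 340.3 and 86.7 FPKM, against 66.5 and 19.6 FPKM in AAV #1, and neither gene passed against that control (log2 fold change 2.49, adjusted p = 0.0895 and 2.44, adjusted p = 0.0869).

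Interferon-regulated promoters carry the interferon-stimulated response element (ISRE), searched here as TTTC, any 2 bases and TTTC again, on both strands of the same windows. It was found in 7 of the 16 listed genes with a promoter (43.8%), in 3.99% of all 27025, in 3.43% of the genes tested and in 6.57% of the 335 genes that rose at least 2-fold. In the other lists searched the share was 21.1% for activated microglia, 20% for neuropeptides, 16.7% for immediate early genes and 16% for reactive astrocytes. These lists too were chosen with earlier results known, and the shares were not tested against each other. The windows of 4 of them are printed, with matched bases in capitals, read along the strand of the gene so that a match on the opposite strand appears as its reverse complement. In Bst2 the matches overlap.
Ifit3, chr19:34583353-34583436, plus strand: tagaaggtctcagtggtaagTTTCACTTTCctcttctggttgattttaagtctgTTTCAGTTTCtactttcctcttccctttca
Bst2, chr8:71537567-71537622, minus strand: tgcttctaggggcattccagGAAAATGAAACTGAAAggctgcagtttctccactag
B2m, chr2:122147528-122147577, plus strand: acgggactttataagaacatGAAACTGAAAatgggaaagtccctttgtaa
Gbp2, chr3:142620584-142620633, plus strand: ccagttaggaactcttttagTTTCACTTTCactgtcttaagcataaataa
Gbp2, a guanylate-binding GTPase, was at 4.84, 3.71 and 3.39 FPKM in KA and 0.593, 0.222 and 0.234 FPKM in PBS and was not tested.

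Lysosomal genes, which digest what phagocytes take up, also rose: of 18 tested, 11 rose at least 2-fold, 4 rose by less and 3 did not pass, with a median log2 fold change of 1.23. Cd9, a tetraspanin found on lysosomal and surface membranes, was at 383, 299 and 229 FPKM in KA and 42.6, 37.1 and 35.7 FPKM in PBS (log2 fold change 2.95 ± 0.18 (SE), adjusted p = 1.38e-06). Ctsh, an aminopeptidase cathepsin, rose by 2.57 ± 0.20, Ctsl, an endopeptidase cathepsin, by 2.3 ± 0.15, and Grn, progranulin, by 2.1 ± 0.13 (log2, SE). Psap, the saposin precursor, was at 263 ± 14.6 FPKM in KA and 235 ± 32.6 FPKM in PBS (SD, n = 3 each, log2 fold change 0.16, adjusted p = 0.373), and Npc1, the membrane cholesterol exporter of the lysosome, differed by 0.19 (log2, adjusted p = 0.216), whereas its soluble partner Npc2 rose by 2.1 (log2, adjusted p = 4.43e-06).

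Of the genes listed for reactive astrocytes, nearly all that could be tested rose. The list includes Igfbp2, which the paper picked from IP data of this series and describes as rarely linked to reactive states. Gfap was at 376, 390.0 and 363 FPKM in KA and 39.97, 49.4 and 39.5 FPKM in PBS, and its 3 KA libraries lay close together (log2 fold change 3.12 ± 0.15 (SE), adjusted p = 2.56e-07). Vim, the intermediate filament vimentin, was at 52.2, 46.1 and 28.8 FPKM in KA and 2.1, 2.68 and 2.72 FPKM in PBS (log2 fold change 4.06 ± 0.19 (SE), adjusted p = 1.85e-07), KA #3 being the lowest of the KA libraries. Serpina3n, a secreted serine protease inhibitor, rose by 3.42 ± 0.15, Tnfrsf12a, the receptor of TWEAK, by 3.03 ± 0.19, and Hspb1, a small heat shock protein, by 2.95 ± 0.15 (log2, SE). Of the 30 genes listed, 9 were tested and 8 rose at least 2-fold (median log2 fold change 3.03). Amigo2, an adhesion molecule of the synapse, did not pass (log2 fold change -0.15, adjusted p = 0.571). Most of the list was at or under 1 FPKM in a PBS library. In 20 of the 21 untested genes the KA values lay above the PBS values, beside 18.4% of genes with at least 10 counts. Of these 21, 17 rose at least 2-fold, beside 6.85% of genes with at least 10 counts. Timp1, an inhibitor of matrix metalloproteinases, was at 19, 14.5 and 15 FPKM in KA and 0.224, 0.419 and 0.221 FPKM in PBS, and Lcn2, lipocalin 2, at 9.32, 7.08 and 6.54 FPKM in KA and 0.304, 0.531 and 0.525 FPKM in PBS. Nes, the filament nestin, was at 0.601, 0.442 and 0.306 FPKM in KA and 0.124, 0.217 and 0.322 FPKM in PBS, and its groups overlapped. Serpina3a, a relative of Serpina3n, held no count in any input library.

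Igfbp2, a secreted protein that binds insulin-like growth factors, was at 196, 149 and 106 FPKM in KA and 11.7, 20.7 and 21.3 FPKM in PBS (log2 fold change 3.06 ± 0.22 (SE), adjusted p = 4.70e-06). KA #3 was the lowest KA library and PBS #1 the lowest PBS library, and the groups were far apart. In the AAV control it was at 45.3, 35.1 and 18 FPKM in #1 to #3, and KA was higher than that control by 2.21 ± 0.31 (log2, SE, adjusted p = 0.00783). Within each group the libraries ranked for Igfbp2 as they did for Ttr, a choroid plexus gene given below. This order is not particular to these genes: among KA libraries, Trem2, C1qa, Vim and Aqp4 also fell from #1 to #3. Cartpt and Npy were instead highest in KA #3. The summed level of the 12 choroid plexus and ependymal genes was 2558 to 4579 FPKM in KA and 55.8 to 330 FPKM in PBS. The part of such tissue in the Igfbp2 difference was not tested. Igfbp2 lies on the plus strand at chr1:72824503-72852474 and overlaps no other annotated gene. Among the other binding proteins, Igfbp7 rose by 1.8 ± 0.13, Igfbp5 by 1.35 ± 0.16 and Igfbp6 by 0.70 ± 0.15. Igfbp4 fell by 0.45 (log2, adjusted p = 0.00627), and Igfbp3 did not pass (0.42, adjusted p = 0.0568). The ligand Igf1 was at 1.73, 1.52 and 1.12 FPKM in KA and 0.774, 0.638 and 0.774 FPKM in PBS and was not tested. None of the 3 receptors passed: Igf1r differed by 0.39, Igf2r by 0.13 and Insr by -0.17 (log2, adjusted p = 0.0814, 0.526 and 0.304). In all, 3 of 9 tested members of the IGF list rose at least 2-fold, with a median log2 fold change of 0.42.

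Genes of resting astrocyte function divided. Of 21 tested, 5 rose at least 2-fold, 7 rose by less, 2 fell and 7 did not pass (median log2 fold change 0.47). Aqp4, the water channel of astrocyte endfeet, was at 77, 66 and 54.4 FPKM in KA and 18.2, 20.6 and 18.9 FPKM in PBS (log2 fold change 1.75 ± 0.12 (SE), adjusted p = 4.42e-06). Kcnj10, the Kir4.1 channel that takes up potassium, rose by 1.1 ± 0.10 (log2, SE, adjusted p = 2.09e-05), and S100b, a calcium-binding protein, by 1.12 ± 0.15 (adjusted p = 4.47e-04). Slc1a2, the main glutamate transporter GLT-1, was at 223, 219.8 and 216 FPKM in KA and 205, 209 and 217 FPKM in PBS, with overlapping groups (log2 fold change 0.051 ± 0.15 (SE), adjusted p = 0.833). Slc1a3, the transporter GLAST, rose by 0.67 ± 0.13 (adjusted p = 0.00386). Glul, glutamine synthetase, differed by -0.20 (log2, adjusted p = 0.364), and Slc6a11, the GABA transporter GAT-3, fell by 0.35 on the log2 scale (adjusted p = 0.0235), a call lost without KA #1, KA #2, PBS #2 or PBS #3 (adjusted p up to 0.107). Aldh1l1, a folate enzyme used as a pan-astrocyte marker, rose by 0.78 ± 0.14 (adjusted p = 0.00256). Sox9, an astrocyte transcription factor, rose by 1.65 (log2, adjusted p = 0.00106) against PBS but did not pass against the AAV control (0.88, adjusted p = 0.258), whose libraries #1 and #2 were at 14.5 and 13.4 FPKM and #3 at 6.06 FPKM. Kcne1l, an accessory subunit of potassium channels, had one of the smallest adjusted p values of all genes tested, at 63.9, 59.8 and 53.3 FPKM in KA and 3.93, 3.31 and 3.7 FPKM in PBS (log2 fold change 4.0 ± 0.13 (SE), adjusted p = 4.97e-08). It lies on the X chromosome, at chrX:142304752-142306294.

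Part of the neuronal genes fell, most of them by under 2-fold. Of 16 pan-neuronal genes, 1 fell at least 2-fold, 6 fell by less, 2 rose and 7 did not pass (median log2 fold change -0.33), beside 12.2% of all genes tested that passed lower. Camk2a, the alpha subunit of the calcium and calmodulin kinase of excitatory neurons, was at 79.7, 92.9 and 108 FPKM in KA and 197, 196 and 204 FPKM in PBS (log2 fold change -1.09 ± 0.17 (SE), adjusted p = 0.00105). Rbfox3, the NeuN antigen, was at 26.7, 31.6 and 32 FPKM in KA and 49.2, 48.9 and 54.7 FPKM in PBS (log2 fold change -0.76 ± 0.12 (SE), adjusted p = 0.00133). All 3 KA libraries were below all 3 PBS libraries for both genes. Snap25 fell by 0.58 on the log2 scale (adjusted p = 0.0192), and Syt1, the calcium sensor of vesicle release, by 0.74 (adjusted p = 0.00608). Nefm, a neurofilament, and Gap43, a growth cone protein, rose by 0.63 and 0.52 (log2, adjusted p = 0.0212 and 0.0166). Map2, the dendritic microtubule protein, was at 24.3 ± 3.87 FPKM in KA and 26.6 ± 2.0 FPKM in PBS (SD, n = 3 each, log2 fold change -0.14, adjusted p = 0.382). Leaving out 1 library ended the calls on Snap25 without KA #1, KA #2 or PBS #2 (adjusted p up to 0.0970), Nefm without KA #1, KA #2, PBS #1, PBS #2 or PBS #3 (adjusted p up to 0.0899) and Gap43 without KA #1, KA #2, PBS #1, PBS #2 or PBS #3 (adjusted p up to 0.0742). Of the 7 decreases in this list, 3 passed without KA #1 or PBS #2 and 4 without KA #2.

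Pyramidal cells of the CA fields are the neurons most often lost after intrahippocampal KA. Among their 14 tested markers, 3 fell at least 2-fold, 3 fell by less, 1 rose and 7 did not pass (median log2 fold change -0.40). Over all genes tested, 1.09% fell at least 2-fold and 12.2% passed lower. Spink8, a protease inhibitor of pyramidal cells, was at 31.4, 30.04 and 52.8 FPKM in KA and 126, 111 and 123 FPKM in PBS (log2 fold change -1.65 ± 0.22 (SE), adjusted p = 4.45e-04). KA #3 was the highest of the KA libraries and still under every PBS library. Neurod6, a transcription factor of pyramidal cells, was at 33.2, 31.7 and 45.1 FPKM in KA and 102, 83.5 and 86.5 FPKM in PBS (log2 fold change -1.31 ± 0.18 (SE), adjusted p = 6.29e-04). Fibcd1, a CA1 marker, was at 5.61, 6.32 and 6.46 FPKM in KA and 14, 12.2 and 17.2 FPKM in PBS (log2 fold change -1.24 ± 0.13 (SE), adjusted p = 9.89e-05). Rgs14, a signalling protein of CA2, fell by 0.91 on the log2 scale (adjusted p = 0.00451), whereas Pcp4, another CA2 marker, rose by 0.47 (adjusted p = 0.00912, lost without PBS #3 at 0.0554). Of 3 genes outside the lists, Rasd2 was among the 12 largest decreases, and the other two were chosen after their values were seen. Hpca, the calcium sensor hippocalcin, was at 387, 352 and 500.2 FPKM in KA and 1327, 1219.7 and 1133 FPKM in PBS (log2 fold change -1.58, adjusted p = 4.54e-04). Ptk2b, a calcium-activated tyrosine kinase, fell by 1.46, and Rasd2, a small GTPase, by 1.97 (log2, adjusted p = 6.25e-04). In Spink8, Hpca and Neurod6, AAV control #1 and #2 lay between the groups: Hpca was at 770.3, 729.7 and 1851 FPKM in AAV #1 to #3 and did not pass against that control (log2 fold change -1.46, adjusted p = 0.120).

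Granule cells of the dentate gyrus, into which KA was injected, gave a mixed picture: of 10 tested markers, 3 fell and 2 rose, all by under 2-fold, and 5 did not pass (median log2 fold change -0.10). Over all genes tested, 12.2% passed lower and 15.5% higher. Prox1, the transcription factor that defines granule cells, was at 12.8, 11.2 and 9.13 FPKM in KA and 9.69, 8.1 and 9.54 FPKM in PBS, and the groups overlapped (log2 fold change 0.26 ± 0.12 (SE), adjusted p = 0.143). Calb1, the calcium buffer calbindin, was at 19, 26.3 and 13.6 FPKM in KA and 20.8, 25 and 29.8 FPKM in PBS, likewise with overlap (log2 fold change -0.38 ± 0.17 (SE), adjusted p = 0.133). Stxbp6 fell by 0.79 and Rfx3 by 0.51 on the log2 scale, and Trpc6, a cation channel, and Pdzd2 rose by 0.74 and 0.83. C1ql2, a secreted C1q-domain protein of mossy fibres, fell by 0.45 (adjusted p = 0.0375), a call that was lost without KA #1, KA #2 or any 1 PBS library (adjusted p up to 0.130). Of the 6 markers at or under 1 FPKM in some library, 4 fell at least 2-fold among genes with at least 10 counts, where 1.54% did. They were Dsp, desmoplakin, at 0.367, 0.348 and 0.386 FPKM in KA and 1.25, 1.03 and 1.13 FPKM in PBS, and Tdo2, Lct and Plk5, with 0.412, 0.675 and 1.29 FPKM on average in KA and 1.6, 2.05 and 4.63 FPKM in PBS.

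Interneuron genes moved in both directions. Of 18 tested, 2 fell at least 2-fold, 9 fell by less, Npy (at least 2-fold) and Calb2 rose and 5 did not pass (median log2 fold change -0.46). Over all genes tested, 12.2% passed lower and 15.5% higher. Cort, the cortistatin precursor of a somatostatin subclass, was at 9.59, 6.36 and 11.7 FPKM in KA and 22.9, 23.6 and 22.7 FPKM in PBS (log2 fold change -1.32 ± 0.23 (SE), adjusted p = 0.00209). Lamp5, a marker of neurogliaform cells, was at 3.01, 3.83 and 5.12 FPKM in KA and 7.91, 11.8 and 11.4 FPKM in PBS (log2 fold change -1.37 ± 0.21 (SE), adjusted p = 0.00117). Neither gene had a KA library above a PBS library. Pvalb, the calcium buffer of fast-spiking cells, was at 52.3, 51.7 and 55 FPKM in KA and 85.9, 79.99 and 74.5 FPKM in PBS (log2 fold change -0.61 ± 0.12 (SE), adjusted p = 0.00486). Gad1, which makes most GABA, fell by 0.48 on the log2 scale (adjusted p = 0.0116). Gad2, the second GABA-synthesising enzyme, was at 21.6 ± 2.87 FPKM in KA and 20.9 ± 1.37 FPKM in PBS (SD, n = 3 each, log2 fold change 0.034, adjusted p = 0.843). Vip, the vasoactive intestinal peptide precursor, did not pass (log2 fold change 0.17, adjusted p = 0.441). Leaving out 1 library ended several calls, among them Gad1 without KA #1 (adjusted p 0.0621), Calb2 without KA #1, KA #2, PBS #1, PBS #2 or PBS #3 (adjusted p up to 0.125) and Npy without PBS #1, PBS #2 or PBS #3 (adjusted p up to 0.0751). Of the 11 decreases in this list, 5 passed without KA #1 or PBS #2, 6 without PBS #1 and 7 without PBS #3.

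Many receptor and channel genes fell, most of them by under 2-fold. Of 19 glutamate receptor subunits, Grin2a fell at least 2-fold, 9 fell by less, 2 rose and 7 did not pass (median log2 fold change -0.39), beside 12.2% of all genes tested that passed lower. Of the 10 decreases in this list, 5 passed without KA #1 or PBS #3 and 6 without PBS #2. Grin2a, an NMDA receptor subunit, was at 10.3, 10.3 and 11.7 FPKM in KA and 23.2, 22.5 and 26.3 FPKM in PBS (log2 fold change -1.16 ± 0.12 (SE), adjusted p = 9.74e-05). Gria1, an AMPA receptor subunit, was at 56.1, 59.2 and 59.7 FPKM in KA and 95.8, 94.4 and 108 FPKM in PBS (log2 fold change -0.77 ± 0.11 (SE), adjusted p = 9.10e-04). For both, the KA libraries lay within a narrow range well below the PBS libraries. Grin2b fell by 0.63 on the log2 scale, while Grin2c, the NMDA subunit also made by astrocytes, rose by 0.90 (adjusted p = 0.00519 and 0.00303). The kainate receptor genes, whose proteins are the direct targets of KA, had small differences. Grik2 fell by 0.47 (adjusted p = 0.0194), and Grik1, Grik3, Grik4 and Grik5 did not pass, at -0.013, -0.45, -0.28 and 0.067. The calls on Gria2, the subunit that limits calcium entry (-0.39, adjusted p = 0.0255), Grin1, the obligatory NMDA subunit (-0.34, adjusted p = 0.0221), and Grik2 were among those lost when 1 library was left out: Gria2 without KA #1, KA #2, PBS #1, PBS #2 or PBS #3 (adjusted p up to 0.0934), Grin1 without KA #1, KA #2, PBS #2 or PBS #3 (adjusted p up to 0.105) and Grik2 without KA #1, PBS #2 or PBS #3 (adjusted p up to 0.0908).

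Among GABA receptor subunits and chloride transporters, 6 of 16 fell, 1 rose and 9 did not pass (median log2 fold change -0.30). Of the 6 decreases in this list, 1 passed without KA #1, 3 without KA #2 or PBS #3 and 4 without PBS #1 or PBS #2. Gabra5, a subunit of extrasynaptic receptors in pyramidal cells, was at 23.3, 23.3 and 32.8 FPKM in KA and 49.1, 45.7 and 50.9 FPKM in PBS (log2 fold change -0.87 ± 0.16 (SE), adjusted p = 0.00357). Slc12a5, the chloride exporter KCC2 of mature neurons, was at 18.6, 20.6 and 15.9 FPKM in KA and 24.1, 23.1 and 24.8 FPKM in PBS (log2 fold change -0.40 ± 0.10 (SE), adjusted p = 0.0160), a call lost without KA #1, PBS #1 or PBS #2 (adjusted p up to 0.0670). Slc12a2, the chloride importer NKCC1, was at 7.79, 6.55 and 4.24 FPKM in KA and 3.86, 3.12 and 3.44 FPKM in PBS (log2 fold change 0.80 ± 0.18 (SE), adjusted p = 0.00762). AAV control #1 and #2, sequenced in the same run as KA #1 and #2, were at 7.36 and 7.33 FPKM, and the difference from that control was 0.12, adjusted p = 0.902 (log2). Gabrb2 and Gabrd, subunits of synaptic and extrasynaptic receptors, did not pass, at -0.30 and -0.10 (log2).

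Of 31 voltage-gated channel genes, Scn3b fell at least 2-fold, 20 fell by less, Kcne1l rose and 9 did not pass (median log2 fold change -0.47). Of the 21 decreases in this list, 13 passed without KA #1 or PBS #3 and 14 without PBS #2. Scn3b, an accessory subunit of sodium channels, was at 7.48, 8.23 and 15.1 FPKM in KA and 29.8, 29.95 and 33 FPKM in PBS (log2 fold change -1.57 ± 0.25 (SE), adjusted p = 0.00135). KA #3 was the highest KA library and stayed below every PBS library. The sodium channel genes Scn1a, Scn2a and Scn8a fell by 0.63, 0.59 and 0.66 on the log2 scale (adjusted p = 7.01e-04, 0.00233 and 0.00435). Kcnq3 and Kcnq5, subunits of the M-current, a potassium current that limits repetitive firing, fell by 0.65 and 0.86 (adjusted p = 0.00304 and 0.00279). Hcn2, a channel of the h-current, did not pass (0.29, adjusted p = 0.0830). Kcna1 and Kcnd2, which encode potassium channel subunits, did not pass, at 0.088 and -0.24. Of 20 genes of synaptic vesicles and adhesion, 8 fell and none rose (median log2 fold change -0.29), among them Nlgn1, a postsynaptic adhesion protein, by 0.80 (adjusted p = 3.69e-04). Of the 8 decreases in this list, 4 passed without KA #1, PBS #2 or PBS #3.

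**Figure D3:**
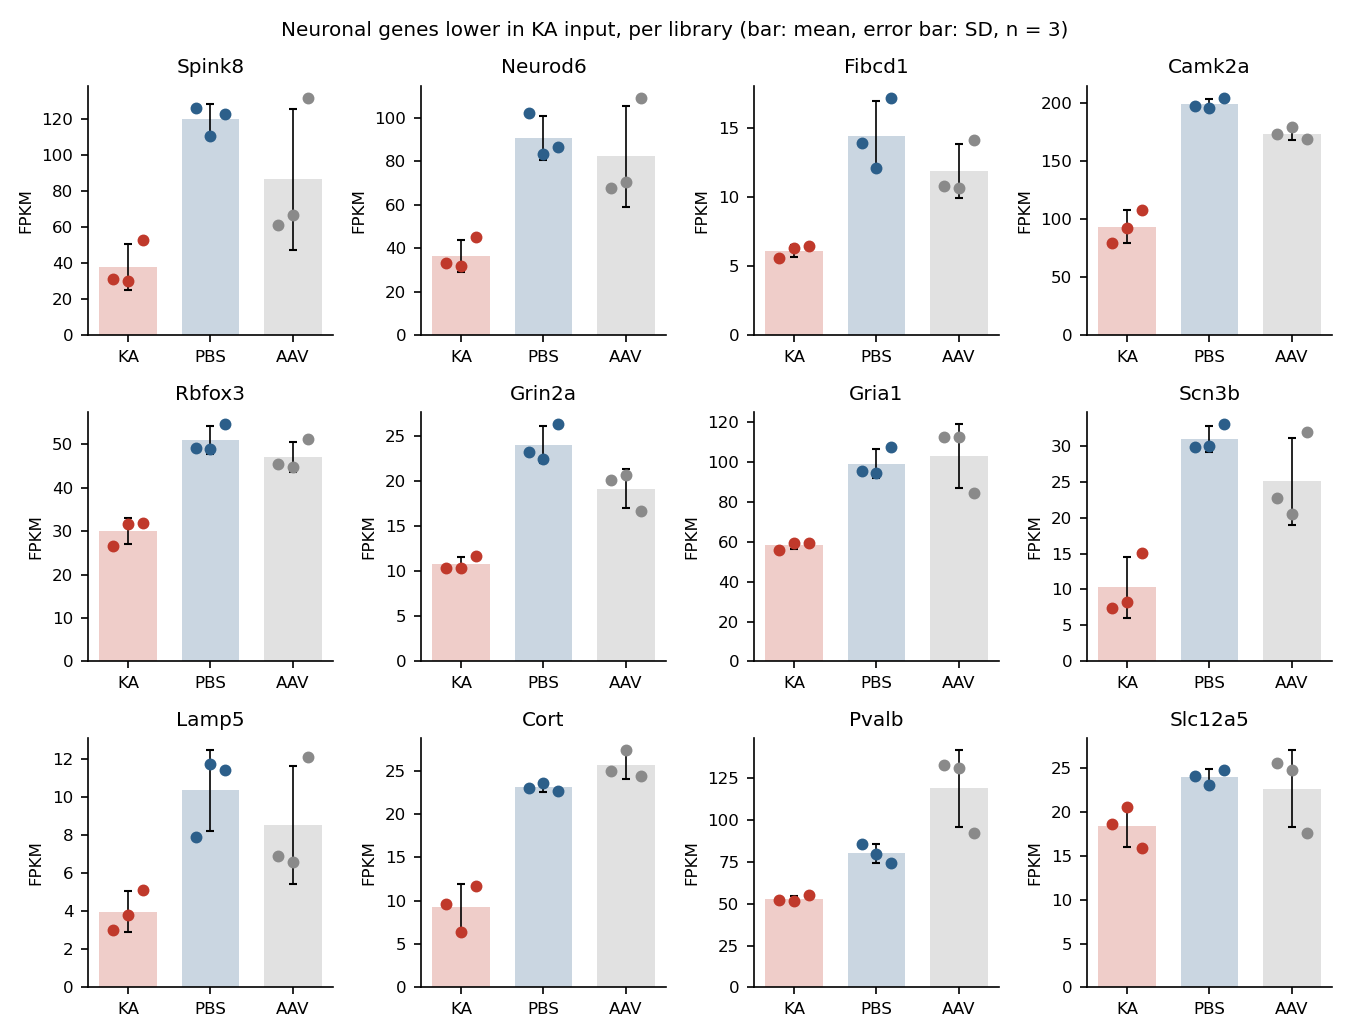
FPKM of 12 neuronal genes that were lower in KA, in each of the 9 input libraries (KA, PBS and AAV control, 3 each). Bars are group means, error bars are SD and points are libraries, and the 3 KA points lie below the 3 PBS points in every panel.

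Immediate early genes, which neurons switch on within minutes of firing, were not uniformly higher 14 days after KA. Fos was at 22.9, 17.8 and 18.3 FPKM in KA and 1.35, 3.08 and 6.69 FPKM in PBS. All KA libraries were above all PBS libraries, although PBS itself ranged widely (log2 fold change 2.42 ± 0.34 (SE), adjusted p = 5.93e-04). Ier2 and Fosl2 rose by 1.94 ± 0.24 and 1.78 ± 0.16 (log2, SE), and Dusp6, a phosphatase that limits ERK, by 1.32 ± 0.15. Egr1 was at 20.6, 22.5 and 22.9 FPKM in KA and 14.6, 18.5 and 25.6 FPKM in PBS (log2 fold change 0.18, adjusted p = 0.399). Arc was at 10.9, 8.82 and 15.8 FPKM in KA and 7.59, 11.3 and 17.8 FPKM in PBS, and both genes had overlapping groups (log2 fold change -0.019, adjusted p = 0.966). Npas4, a factor induced by depolarisation, was at 3.04, 2.49 and 2.73 FPKM in KA and 0.144, 0.112 and 0.475 FPKM in PBS and was not tested. Of 18 tested, 5 rose at least 2-fold, 4 rose by less and 9 did not pass (median log2 fold change 0.59). Of the 9 increases in this list, 5 passed without PBS #1 or PBS #2 and 6 without KA #2. The AAV control of Ier2 was at 7.89, 11.1 and 4.59 FPKM in #1 to #3, and KA did not differ from it past the threshold (0.89, adjusted p = 0.176).

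Markers of newborn neurons did not move together. Dcx, the microtubule protein of migrating neurons, was at 1.04, 1.19 and 1.28 FPKM in KA and 1.2, 1.49 and 1.95 FPKM in PBS, with overlap (log2 fold change -0.40 ± 0.17 (SE), adjusted p = 0.103). Sox11 and Sox4, transcription factors of immature neurons and other progenitors, rose by 0.67 and 0.78 (log2, adjusted p = 0.00752 and 0.00823), the former not when all 9 input libraries were in 1 fit (adjusted p = 0.145). In all, 6 of 10 tested rose by under 2-fold, none passed lower and 4 did not pass (median log2 fold change 0.38). Of the 6 increases in this list, 2 passed without KA #1 or PBS #2, 3 without KA #2 or PBS #3 and 4 without PBS #1. Proliferation genes were near the limit of the assay: 3 of 16 were tested, and Ccnd1, cyclin D1, rose by 0.50 (adjusted p = 0.00734). Mki67, the Ki-67 antigen, was at 0.323, 0.365 and 0.283 FPKM in KA and 0.267, 0.305 and 0.215 FPKM in PBS, with overlap, while Cdk1, the mitotic kinase, was at 1.03, 0.723 and 0.954 FPKM in KA and 0.101, 0.0565 and 0.199 FPKM in PBS, without overlap. Among the 13 untested, the KA values lay above the PBS values in 9, beside 18.4% of genes with at least 10 counts. Of these 13, 5 rose at least 2-fold, beside 6.85% of genes with at least 10 counts.

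No tested gene of the lists of myelin, oligodendrocyte precursors, vessels, fibroblasts or blood leukocytes changed at least 2-fold, beside 4.26% of all genes tested that rose so. Only 4 of 15 fibroblast and 2 of 16 leukocyte genes were tested. Among their untested genes with at least 10 counts, 2 of 11 fibroblast and 4 of 14 leukocyte genes rose at least 2-fold, where 6.85% did. In 10 of the 14 untested leukocyte genes the KA values lay above the PBS values, as in 18.4% of genes with at least 10 counts. Of 14 myelin genes, 3 rose by under 2-fold and 11 did not pass (median log2 fold change 0.27), beside 15.5% of all genes tested that passed higher. Of the 3 increases in this list, 0 passed without KA #1, KA #2, PBS #2 or PBS #3 and 2 without PBS #1. Mbp, myelin basic protein, was at 298, 237 and 303 FPKM in KA and 280.4, 335 and 237 FPKM in PBS (log2 fold change -0.038 ± 0.20 (SE), adjusted p = 0.906). Of 7 oligodendrocyte precursor genes, 2 rose. Pdgfra, their growth factor receptor, did not pass (0.021, adjusted p = 0.933). Of 7 endothelial and pericyte genes, 3 rose by under 2-fold, including Cldn5, the claudin of the blood-brain barrier, by 0.60 (adjusted p = 0.0153, lost without KA #1, PBS #1 or PBS #3, up to 0.0717). None of the 4 tested fibroblast genes passed, and Col1a1, the fibrillar collagen chain, was at 0.479, 0.688 and 0.269 FPKM in KA and 0.106, 0.184 and 0.315 FPKM in PBS. Some T cell and blood leukocyte genes were near 0: Cd3e, a T cell receptor subunit, was at 0.124, 0.257 and 0.0481 FPKM in KA and 0.0976, 0 and 0 FPKM in PBS, and Ccr2, the chemokine receptor of monocytes, at 0.0750, 0.155 and 0.0435 FPKM in KA and 0.0294, 0.0275 and 0.0145 FPKM in PBS. Ptprc, the pan-leukocyte antigen CD45 that microglia also carry, was at 0.792, 0.671 and 0.782 FPKM in KA and 0.190, 0.101 and 0.161 FPKM in PBS. Nkg7, a granule protein of cytotoxic cells, was at 3.0, 2.76 and 4.18 FPKM in KA and 0, 0.102 and 0 FPKM in PBS, and S100a8, a neutrophil protein, did not pass (log2 fold change 0.40, adjusted p = 0.595). The summed level of the 16 leukocyte genes was 21.6 to 37.7 FPKM over the KA libraries, 7.19 to 18.1 FPKM over the PBS libraries and 6.25 to 14.7 FPKM over the AAV control libraries.

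**Figure D4:**
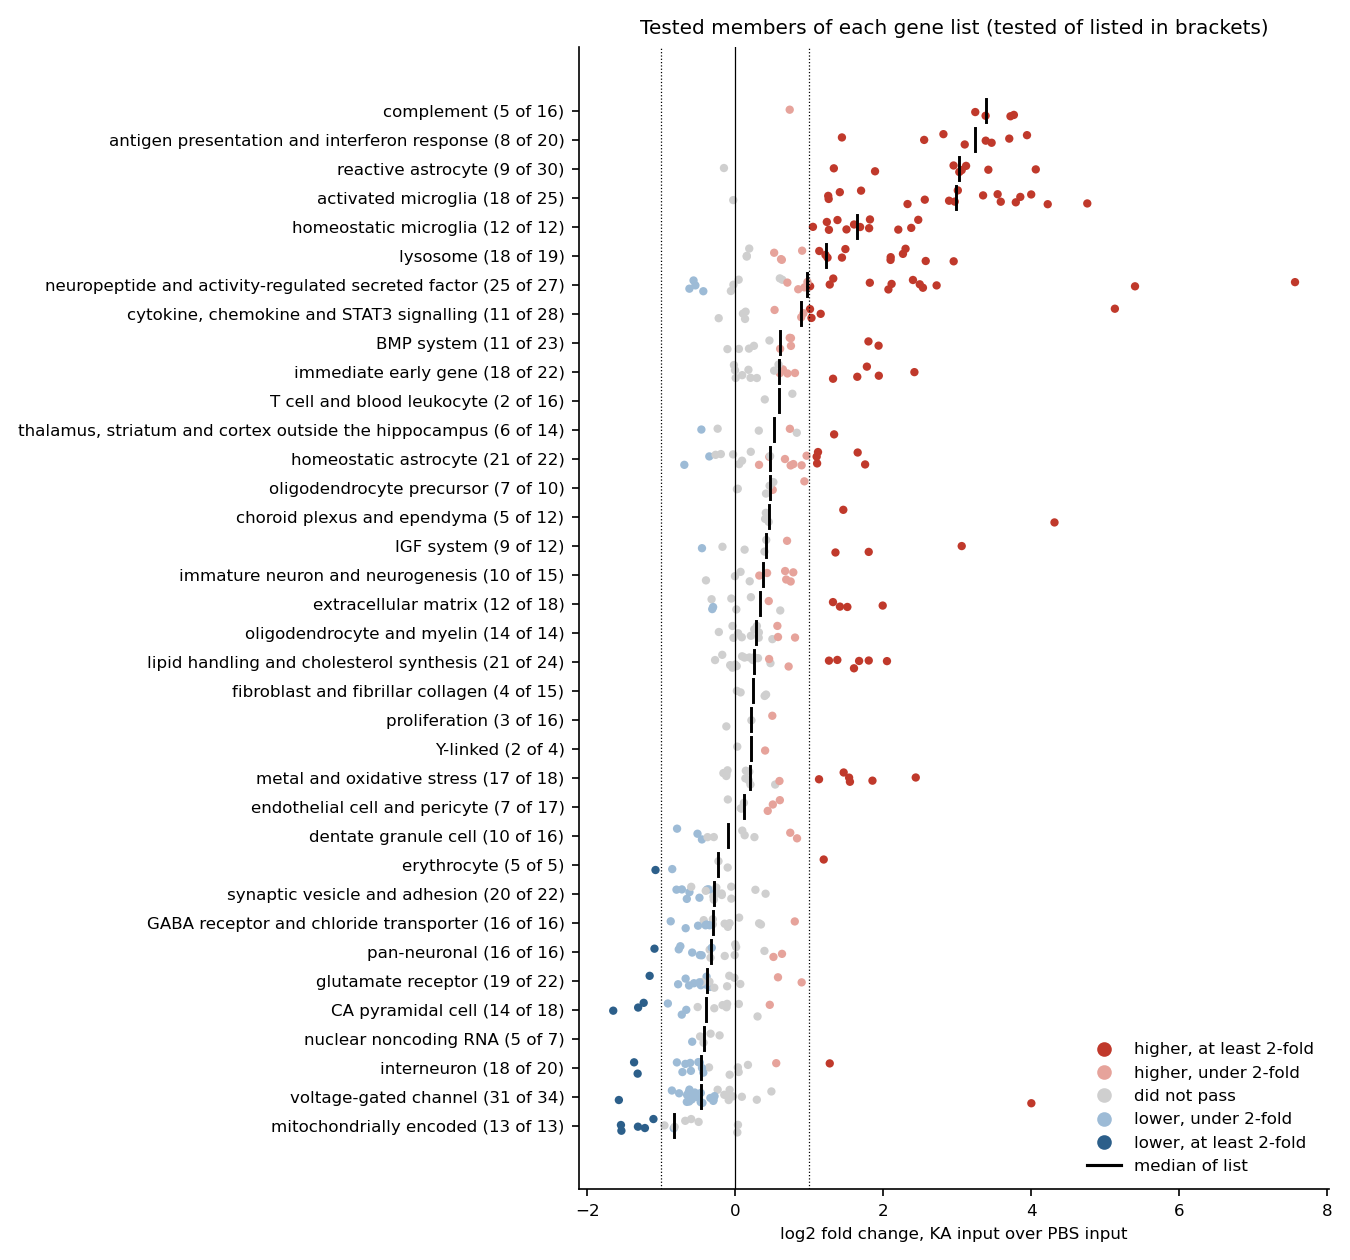
Log2 fold change (KA over PBS) of each tested member of the gene lists, 1 row per list, with a bar at the median of the row. Rows of microglia, complement, antigen presentation and reactive astrocyte genes have medians right of 0, and rows of neuronal, receptor, channel and mitochondrial genes have medians left of 0.

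Among matrix genes, 4 of 12 rose at least 2-fold, beside 4.26% of all genes tested. Sparc, a collagen-binding secreted glycoprotein, was at 537, 481 and 500.3 FPKM in KA and 112, 139.6 and 128 FPKM in PBS (log2 fold change 1.99 ± 0.14 (SE), adjusted p = 4.51e-06). Its relative Sparcl1, hevin, was at 203 ± 22.2 FPKM in KA and 198 ± 9.65 FPKM in PBS (SD, n = 3 each, log2 fold change 0.014, adjusted p = 0.943). Acan, the core proteoglycan of perineuronal nets, was at 2.36, 2.26 and 2.68 FPKM in KA and 0.160, 0.0995 and 0.184 FPKM in PBS and was not tested. Bcan and Tnr, other net components, did not pass (log2 fold change -0.054, adjusted p = 0.701 and -0.32, adjusted p = 0.0728). In lipid handling, 6 of 21 rose at least 2-fold, beside the same 4.26%. Apoe, the lipid carrier of astrocytes and microglia, was at 13606, 11681 and 7624 FPKM in KA and 2381, 3043 and 2375 FPKM in PBS (log2 fold change 2.05 ± 0.26 (SE), adjusted p = 3.58e-04). Abca1, the cholesterol exporter that loads it, rose by 1.67 ± 0.11. The cholesterol synthesis enzymes Sqle and Cyp51 did not pass (0.25 and 0.31 on the log2 scale). Of 17 metal and oxidative stress genes, 6 rose at least 2-fold, again beside 4.26%. Mt2, a metallothionein, was at 98, 89.1 and 176 FPKM in KA and 27.1, 19 and 21.2 FPKM in PBS (log2 fold change 2.44 ± 0.29 (SE), adjusted p = 2.31e-04), KA #3 being the highest. Mt1 rose by 1.13 (adjusted p = 0.0478), a call lost without any 1 PBS library (adjusted p up to 0.159). Hmox1, heme oxygenase 1, rose by 1.54 ± 0.19, and Fth1, ferritin heavy chain, did not pass (0.14, adjusted p = 0.650), while Ftl1, the light chain, rose by 1.85 ± 0.20.

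Of 11 tested BMP genes, 2 rose at least 2-fold and 4 by less. Over all genes tested, 4.26% rose at least 2-fold and 15.5% passed higher. Id3, a BMP-induced inhibitor of transcription factors, was at 185, 164 and 122 FPKM in KA and 42, 39.3 and 39.6 FPKM in PBS (log2 fold change 1.94 ± 0.14 (SE), adjusted p = 4.19e-06). Smad7, which dampens the pathway, rose by 1.8 ± 0.23 (adjusted p = 3.60e-04). The receptors Bmpr1a, Bmpr1b and Bmpr2 did not pass (0.048, 0.46 and -0.11). Smad7 was at 4.6, 4.59 and 1.3 FPKM in AAV control #1 to #3 and did not pass against that control (0.88, adjusted p = 0.328). Of 11 tested cytokine and signalling genes, 4 rose at least 2-fold and 3 by less. Of the 17 untested, 14 had at least 10 counts, and 11 of these rose at least 2-fold, beside 6.85% of such genes. Ccl12, a monocyte-attracting chemokine, was at 60.1, 57.5 and 74.5 FPKM in KA and 2.59, 1.04 and 1.83 FPKM in PBS (log2 fold change 5.13 ± 0.27 (SE), adjusted p = 4.55e-07). Ccl2, its relative, was at 3.74, 3.32 and 4.83 FPKM in KA and 0.0875, 0 and 0.0864 FPKM in PBS. Cxcl10, an interferon-induced chemokine, was at 13.8, 13.6 and 14.1 FPKM in KA and 0.354, 0.330 and 0.218 FPKM in PBS. Neither was tested. The classical inflammatory cytokines stayed under 1 FPKM in all 6 libraries: Il1b was at 0.479, 0.771 and 0.514 FPKM in KA and 0.470, 0.0975 and 0.309 FPKM in PBS, Tnf at 0.186, 0.192 and 0.180 FPKM in KA and 0 FPKM in every PBS library, and Il6 at 0.0418, 0 and 0.0404 FPKM in KA and 0, 0.153 and 0 FPKM in PBS. Stat3, the transcription factor of reactive astrocytes, rose by 1.01 ± 0.12 (adjusted p = 1.84e-04), and Socs3, its feedback inhibitor, was at 0.772, 1.02 and 0.814 FPKM in KA and 0.103, 0.257 and 0.238 FPKM in PBS. Il33, an alarmin of glia, rose by 0.92 ± 0.10 (adjusted p = 7.92e-05).

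The limit of 1 FPKM in every library leaves out genes that were near 0 in one group. Of the 55291 gene symbols searched, 24145 held no count in any of the 6 libraries. Genes above the limit in KA alone or in PBS alone cannot overlap between the groups, by the way they are picked. In all, 366 genes exceeded 1 FPKM in every KA library and in no PBS library, and 120 did the reverse. Besides Cst7, Ccl3 and Timp1, the most abundant of the former were Gm13715 and 5031425F14Rik. Gm13715, a predicted gene on chromosome 2, was at 90.5, 51.8 and 103 FPKM in KA and 0, 0.226 and 0.239 FPKM in PBS. 5031425F14Rik, annotated as a long intergenic noncoding RNA on chromosome 2, was at 13.6, 13.6 and 16.1 FPKM in KA and 0.0474, 0.221 and 0.0469 FPKM in PBS. The counts behind Gm13715 were 203 to 433 in KA and 0 to 1 in PBS. Of the reverse kind, Akr1c18, which inactivates progesterone, was at 0.924, 0.609 and 0.569 FPKM in KA and 5.28, 3.16 and 4.07 FPKM in PBS, with 7 to 11 counts in KA and 41 to 64 in PBS. The other 4 most abundant were short genes with at most 1 count per KA library and 1 to 8 per PBS library. Gm23582 and Gm25809 are annotated as snoRNA, Gm23677 as snRNA and Gm23918 as ribosomal RNA. On the 21645 genes with at least 10 counts over the 6 libraries, 1482 (6.85%) rose and 334 (1.54%) fell at least 2-fold.

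Part of the transcripts of mitochondrial DNA fell. They made up 6.73%, 7.40% and 11.7% of counts in KA #1 to #3, 17.0%, 13% and 11.9% in PBS #1 to #3 and 11.4%, 12.5% and 10.9% in AAV control #1 to #3, so KA #3 and PBS #3 were close to each other. Of the 13 protein-coding ones, 5 fell at least 2-fold, 1 fell by less and 7 did not pass (median log2 fold change -0.83 against PBS, and 0.010 against the AAV control). mt-Atp6, a subunit of the ATP synthase, was at 114, 115 and 97.1 FPKM in KA and 502, 225 and 191 FPKM in PBS (log2 fold change -1.55 ± 0.33 (SE), adjusted p = 0.00662). mt-Co3, a subunit of cytochrome c oxidase, was at 45.7, 48.3 and 82.2 FPKM in KA and 244, 142 and 120.4 FPKM in PBS (log2 fold change -1.54 ± 0.32 (SE), adjusted p = 0.00611). Both are a small part of the summed level of the 13, 49949 to 69015 FPKM in KA and 76394 to 101424 FPKM in PBS. In the annotation mt-Atp6 overlaps mt-Atp8 and mt-Co3 on the same strand. How reads shared by such genes were counted is not given in the sources used here. The AAV control was at 25.7, 32.3 and 134 FPKM in #1 to #3 for mt-Co3, and with all 9 input libraries in 1 fit its difference between KA and PBS no longer passed (adjusted p = 0.110). mt-Nd1, a subunit of complex I and among the most abundant, did not pass (log2 fold change -0.60, adjusted p = 0.133). Leaving out 1 library ended the calls on mt-Nd3 without KA #1, KA #2 or PBS #1 (adjusted p up to 0.0787), mt-Co2 without KA #1 (adjusted p 0.0533), mt-Atp8 without KA #1, PBS #1 or PBS #2 (adjusted p up to 0.0843) and mt-Nd2 without KA #1, KA #2, PBS #1 or PBS #2 (adjusted p up to 0.152). Among the 12 largest decreases were also mt-Tw, CT010467.1 and Ubb-ps. mt-Tw, a mitochondrial tRNA, was read by 4 to 10 counts in KA (log2 fold change -2.16, adjusted p = 0.00748). CT010467.1, annotated as ribosomal RNA, was at 242, 230.2 and 1604 FPKM in KA and 3378, 2691 and 2739 FPKM in PBS. Ubb-ps, a pseudogene whose sequence resembles its parent, was at 92.2, 78.9 and 215 FPKM in KA and 379, 427 and 379 FPKM in PBS. With all 9 input libraries in 1 fit, Ubb-ps and Gm12715 did not pass (adjusted p = 0.184 and 0.0966). CT010467.1 was far higher in KA #3 than in KA #1 and #2, and its call was lost without KA #1, KA #2 or any 1 PBS library (adjusted p up to 0.116). The rest were Gm10222, Gm12715, Gm11628, Gm13311 and Gm8399, annotated as pseudogenes, Gm25190, annotated as a miRNA, and Gm36935, a predicted gene. Of these, Gm11628 without KA #1, KA #2, PBS #1 or PBS #2 (adjusted p up to 0.0918), Gm13311 without KA #1, KA #2, PBS #2 or PBS #3 (adjusted p up to 0.121) and Gm25190 without KA #1, KA #2, PBS #1 or PBS #2 (adjusted p up to 0.0832) lost the call. Sequencing run and treatment cannot be told apart here.

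Genes of neighbouring tissue differed between libraries and runs. Ttr, transthyretin of the choroid plexus, was at 4459, 3816 and 2478 FPKM in KA and 17, 247 and 287 FPKM in PBS (log2 fold change 4.31 ± 0.74 (SE), adjusted p = 0.00207), but AAV control #1 to #3 were at 2965, 2102 and 14.6 FPKM, so the 2 AAV libraries of run 1 lay far above PBS and the AAV library of run 2 did not. With all 9 input libraries in 1 fit the difference between KA and PBS did not pass (adjusted p = 0.0569), and neither did that between KA and the AAV control (1.13, adjusted p = 0.698). Enpp2, which the choroid plexus also makes, rose by 1.46 (log2, adjusted p = 5.31e-05) with 67, 51.3 and 15.5 FPKM in AAV control #1 to #3. Over the 12 choroid plexus and ependymal genes, 2 of 5 tested rose at least 2-fold, and the summed level was 2558 to 4579 FPKM in KA, 55.8 to 330.2 FPKM in PBS and 55.3 to 3066 FPKM in the AAV control. Foxj1, the ciliary transcription factor, was under 2 FPKM in all of them. Of 6 tested markers of thalamus, striatum and cortex, Prkcd, a thalamic kinase, rose by 1.33 (adjusted p = 0.00251), Rorb rose by 0.74, Fezf2 fell by 0.46 and 3 did not pass. The call on Fezf2 was lost without KA #1, KA #2, PBS #2 or PBS #3 (adjusted p up to 0.102). Pituitary hormone genes, chosen after their values were seen, were uneven: Gh, growth hormone, was at 28.6, 84.4 and 3.98 FPKM in KA and 1.62, 5.5 and 5.13 FPKM in PBS and 78.7, 21.3 and 0.0922 FPKM in AAV control #1 to #3. Pomc, the precursor of ACTH, was at 15.2, 31.8 and 3.79 FPKM in KA and 2.19, 1.06 and 1.86 FPKM in PBS (log2 fold change 3.27, adjusted p = 0.00386). The groups overlapped for Gh, and its call (log2 fold change 3.2, adjusted p = 0.0149) was lost without KA #2 or any 1 PBS library (adjusted p up to 0.0681). The part of neighbouring tissue in the other differences was not tested. Globin genes of red cells did not move together: Hba-a2 rose by 1.19, Hbb-bs fell by 1.08 (a call lost without KA #1, KA #2 or any 1 PBS library, adjusted p up to 0.135), and Hba-a1 and Hbb-bt, near-identical copies of them, did not pass (-0.10 and -0.23). Malat1, a nuclear RNA, did not pass (log2 fold change -0.48, adjusted p = 0.261).

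**Figure D5:**
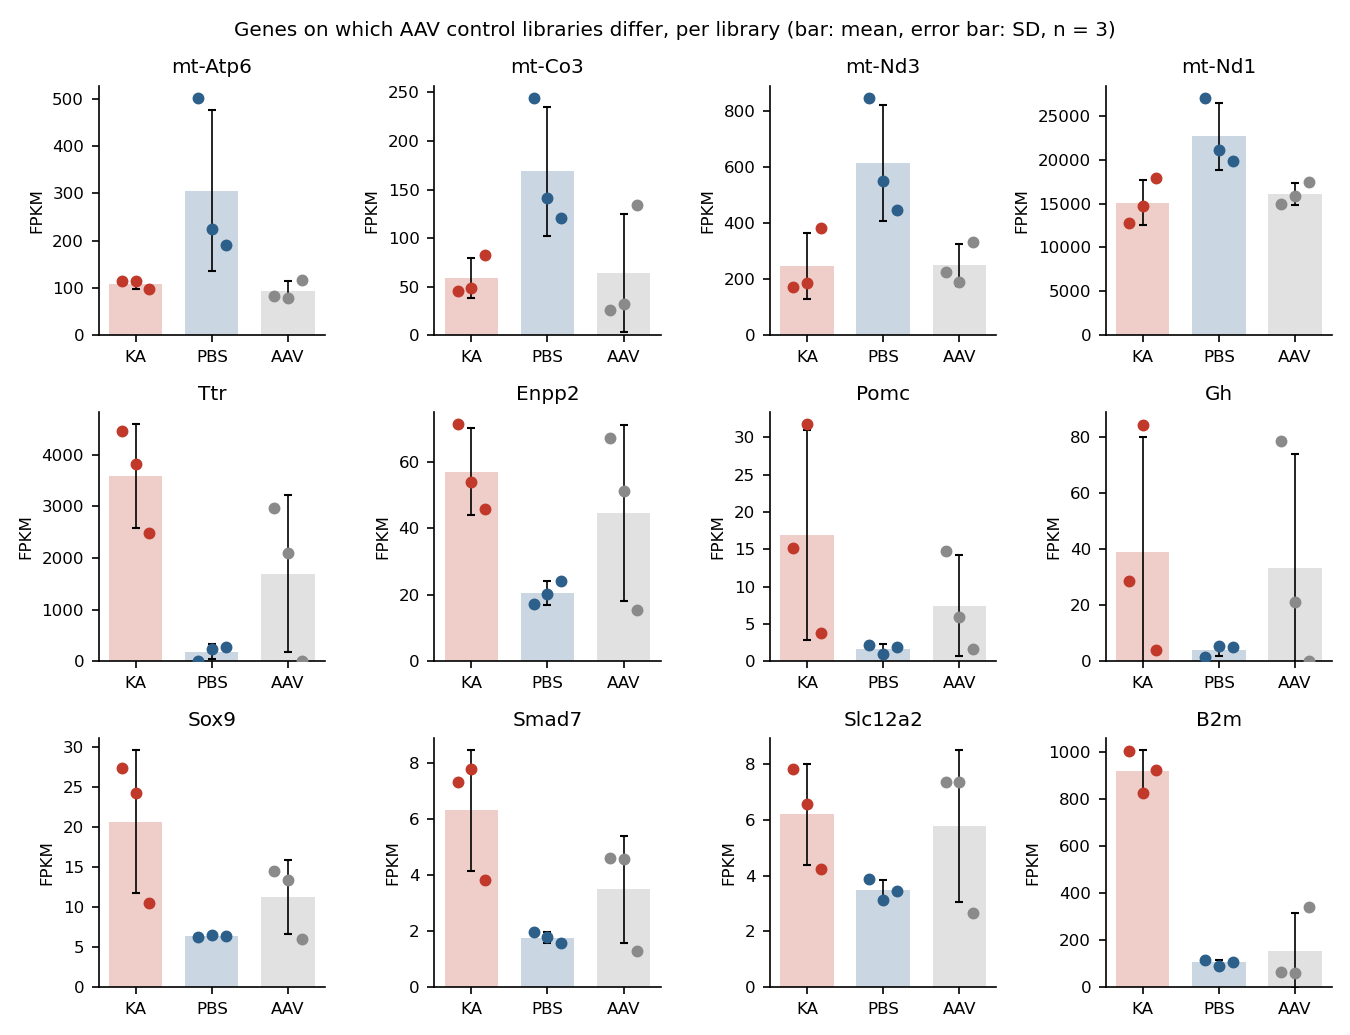
FPKM of 12 genes whose levels differ between single libraries or runs, in each of the 9 input libraries. Bars are group means, error bars are SD and points are libraries, and Ttr shows AAV control #1 and #2 beside the KA libraries and AAV control #3 beside PBS.

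The AAV control gives a baseline sequenced in the same runs as KA but with 1 surgery and 2 weeks less of survival. The comparison of KA with it shares the KA libraries with the comparison above, so the values are set side by side and no overlap is drawn from them. Of 10809 genes tested, 272 (2.52%) rose and 20 (0.185%) fell at least 2-fold in KA against the AAV control, and 485 (4.49%) passed at an adjusted p under 0.05. The sum of genes changed at least 2-fold, 292, was 588 without AAV control #3, 133 without KA #1 and 181 without KA #2. PBS against the AAV control gave no gene at an adjusted p under 0.05 in edgeR out of 10924, with 901 (8.25%) at an unadjusted p under 0.05 and 30 by DESeq2. Without AAV control #3, 4076 genes passed and 365 of them differed at least 2-fold. Cartpt was higher than the AAV control by 7.97 and higher than PBS by 7.56 (log2), Penk by 5.51 and 5.4, Gfap by 3.42 and 3.12, C1qa by 3.77 and 3.76, and Kcne1l by 4.13 and 4.0, and all 5 passed in both. Against the AAV control, none of the 16 pan-neuronal and 14 pyramidal genes passed with a fall of at least 2-fold. Spink8 was lower by 1.19 (log2) but did not pass (adjusted p = 0.158), Camk2a differed by -0.88, adjusted p = 0.0535, and Grin2a, a receptor gene outside both lists, by -0.81, adjusted p = 0.0285. Pvalb differed from the AAV control, lower by 1.15 (log2, adjusted p = 0.00618) and lower than PBS by 0.61. Rpl10a, the gene of the tagged ribosomal protein, was at 49.8 ± 3.66 FPKM in KA and 36.7 ± 1.4 FPKM in PBS (SD, n = 3 each, log2 fold change 0.43, adjusted p = 0.0177, lost without PBS #2 or PBS #3, up to 0.0913). Vector and endogenous transcripts of it were not separated.

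Ribosome IP of the same homogenates, enriched for astrocyte RNA, gives the KA effect in another RNA fraction. The effect differed between input and IP at an adjusted p under 0.05 in 2717 of the genes tested (25%), higher in input in 1568 (14.5%) and lower in 1149 (10.6%). Cartpt, Penk and Scg2 increased less in input than in IP, with differences in log2 fold change of -4.69 ± 1.01 (SE), adjusted p = 0.00485 for Cartpt, -3.76 ± 0.65 (SE), adjusted p = 0.00134 for Penk and -3.74 ± 0.35 (SE), adjusted p = 3.14e-05 for Scg2. In KA IP these neuropeptide genes averaged 1601, 3527 and 1171 FPKM. Trem2 and C1qa increased more in input, with differences of 2.57 ± 0.37 (SE), adjusted p = 4.75e-04 and 1.93 ± 0.40 (SE), adjusted p = 0.00416, at 1.99 and 14.6 FPKM in KA IP. Igfbp2 increased less in input than in IP, with a difference of -1.12 ± 0.37 (SE), adjusted p = 0.0386, at 924 FPKM in KA IP against 150.4 FPKM in KA input. Vim, Kcne1l and Gfap did not pass this test (-0.10 ± 0.35 (SE), adjusted p = 0.859, 0.051 ± 0.28 (SE), adjusted p = 0.909 and 1.18 ± 0.46 (SE), adjusted p = 0.0745). Input and IP libraries share homogenates, which this edgeR test does not use. With the homogenate as a replicate block in limma-voom, 4014 genes passed, Gfap among them (1.11 ± 0.31, adjusted p = 0.0123), and the calls on the other genes of this paragraph were as above.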

How the data were processed

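The KA and PBS input samples each comprise 3 pools of 3 to 4 right hippocampi. Per the labels, libraries were made with a NEBNext Ultra II kit and sequenced on an Illumina NovaSeq, and STAR, featureCounts, edgeR and mm10 are named in the submitters' processing notes without versions or a strand setting. The authors deposited a table of raw read counts and a table of FPKM values for each library, by gene symbol, and no column or row was left unmapped (0). FPKM served only as a filter (above 1 in all 6 libraries), as the study's methods do, and to print levels. The deposited counts were fitted with edgeR 4.0.16 (R 4.3.3; TMM, quasi-likelihood test, Benjamini-Hochberg adjustment over the 10849 genes), and a standard error is the log2 fold change over the square root of F. limma 3.58.1 and DESeq2 1.42.0 gave alternatives, together with other filters, scalings and libraries left out in turn. On simulated data, the KA against PBS fit on 10849 genes recovered 193 of 200 changed genes with 7 false calls. The settings of the simulation are not given here, so this is only a check that the fit works. It does not measure how many real changes were found or missed. In the real libraries 3006 genes passed, and 1716 to 4820 with 1 library left out. Whether the recovery holds for these libraries, with their differences between runs, was not tested. Total counts of 9534606 to 10766221 per library limit precision for genes near 1 FPKM. Replicates differed beyond sampling noise (chi-square per degree of freedom 4.48 to 45.1), so none was counted as a duplicate. The value was 4.48 between KA #1 and KA #2 of run 1, and 45.1 and 39.6 between these and KA #3 of run 2. Between PBS libraries, all of run 3, it was 7.22 to 19.8.

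Named genes were the 12 largest increases and decreases whose groups did not overlap, up to 3 DEGs per list, 83 genes chosen for the biology of the tissue, and the 5 most abundant genes above 1 FPKM in one group alone. Other genes are members of the 36 lists, named after their values were seen. Members and lists were chosen with earlier results of these data known. Coordinates are from GENCODE M21 on GRCm38 (mm10), matched by symbol for 53292 symbols (96.4%), and promoter sequences from RefSeq (GRCm38.p6). Of 146 named genes with a location, 65 overlap another gene, and their reads may be shared with it. Some members of the lists are counted but not reported by name here.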

Additional observations from a re-analysis of the deposited data

Results flagged for a closer look

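For 6 named genes the effect of KA differed in sign between whole tissue and ribosome IP, passed the test of that difference and passed within the IP. P2ry12 rose in input (log2 fold change 1.05) and fell in IP (-0.74, adjusted p = 0.00762), a difference of 1.79 (adjusted p = 5.60e-04). Csf2ra, a cytokine receptor subunit of myeloid cells, rose in input (1.15) and fell in IP (-0.80, adjusted p = 0.0120), a difference of 1.96 (adjusted p = 0.00152). Cldn5 rose in input (0.60) and fell in IP (-0.87, adjusted p = 0.0205), a difference of 1.48 (adjusted p = 0.0115). In the other 3, all neuronal, the signs were reversed. Pvalb fell in input (-0.61) and rose in IP (1.97, adjusted p = 1.12e-05), a difference of -2.58 (adjusted p = 1.28e-04). Snap25 fell in input (-0.58) and rose in IP (0.89, adjusted p = 0.00982), a difference of -1.48 (adjusted p = 0.0100). C1ql2 fell in input (-0.45) and rose in IP (1.81, adjusted p = 0.00238), a difference of -2.26 (adjusted p = 0.0111). The input calls on Cldn5, Snap25 and C1ql2 were lost when single libraries were left out. All p-values are from edgeR's quasi-likelihood test over 10849 genes. With the homogenate as a replicate block in limma-voom, the difference passed for all 6 genes.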

How the results depend on the processing

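No result that passed its test turned its direction. The differences of Arc, Gabrd, Gad2, Mbp and Pdgfra, which did not pass, changed sign under some alternatives. Of 121 tested named genes, 92 kept their side of the threshold under every alternative run, 23 lost a call in at least 1 and 6 gained one. Genes changed at least 2-fold between KA and PBS, 580 in all, numbered 471 to 791 when 1 library was left out, 1026 with the filter on mean FPKM and 1816 without an FPKM filter, alternatives that test more genes. Those higher (462) numbered 410 to 545, 837 and 1482 in the same order, and those lower (118) 61 to 246, 189 and 334. Genes with an adjusted p under 0.05 (3006) numbered 1716 to 4820 with 1 library left out and 1692 with all 9 input libraries in 1 fit. The replicate numbers do not pair KA with PBS libraries (correlations of deviations 0.101, -0.077 and 0.088), and a replicate block gave 463 higher and 126 lower. PBS against the AAV control, 0 in edgeR, gave 14 genes changed and 30 passed in DESeq2, 1 and 1 with a replicate block, and 0 to 365 changed and 0 to 4076 passed with 1 library left out. KA against the AAV control (292) gave 133 to 588 with 1 library left out. The difference between input and IP (2717) rose to 4014 genes with a replicate block for the shared homogenate. The first principal component carried 54.0% without an FPKM filter and 65.5% to 79.1% with 1 library left out. Of 272 listed or named genes that passed, 81 lost the call when some library was left out, among them 3 of 112 that rose and 8 of 25 that fell at least 2-fold. Causes of these shifts were not tested. Genes near 1 FPKM have few counts, which limits what differences can be detected there.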

Other observations

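Several changed genes belong to none of the gene lists and were chosen after their values were seen. Chil1, a secreted chitinase-like protein made by reactive astrocytes and macrophages, was at 25.7, 15 and 16.2 FPKM in KA and 1.74, 2.29 and 2.66 FPKM in PBS (log2 fold change 3.08 ± 0.21 (SE), adjusted p = 3.65e-06). Serpinf1, the secreted factor PEDF, was at 37.2, 28.3 and 31.3 FPKM in KA and 3.75, 4.37 and 4.29 FPKM in PBS (log2 fold change 2.95 ± 0.13 (SE), adjusted p = 1.76e-07). The groups did not overlap for either gene. Hspb3, a small heat shock protein, rose by 3.41 ± 0.25 (log2, SE), and Hpgd, which breaks down prostaglandins, by 2.4 ± 0.29. Among genes that fell, Cpne4, a calcium-dependent membrane-binding protein, was at 6.95, 5.55 and 8.92 FPKM in KA and 18, 15.6 and 17.5 FPKM in PBS (log2 fold change -1.25 ± 0.18 (SE), adjusted p = 7.76e-04). Lefty1, a secreted antagonist of Nodal signalling, was at 3.98, 5.19 and 5.36 FPKM in KA and 12, 9.89 and 9.84 FPKM in PBS (log2 fold change -1.14 ± 0.19 (SE), adjusted p = 0.00195). Adjusted p-values are from edgeR's quasi-likelihood test over 10849 genes.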
